A study of Mus musculus with 12 samples.

Results

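The transcripts of 9 actin cytoskeleton genes, Flna, Myh9, Myh10, Tln1, Actb, Actn4, Iqgap1, Capzb and Vcl, were followed in tumor-associated macrophages (TAMs). Their proteins belong to the actin network that becomes linked by disulfide bonds in disulfidptosis, and the genes were taken by symbol, by a rule with no threshold on measured values but with earlier results of these data known. Each symbol was on 1 row of both count tables, so that 9 of 55401 listed genes were members, and all 9 passed the filter on low counts in both tables. Bulk RNA-seq had been performed on TAMs sorted from subcutaneous B16-F10 melanoma, to ask how AMPK, a kinase that senses cellular energy, and tumor stage relate to the death of these cells. WT TAMs are labelled as from AMPKfl/fl mice, a genotype with the floxed allele and no Cre named, and AMPK-KO TAMs as from AMPKfl/fl mice that also carry Lyz2cre/cre, with 3 samples each. The methods give day 15 after implantation for the sort of WT and AMPK-KO TAMs. Early TAMs (day 8 after implantation) and Late TAMs (day 15) came from mice labelled WT, with 3 samples each. No sample received a treatment, and the methods describe young C57BL/6 mice and the sort gate CD45+CD11b+Ly6C-Ly6G-F4/80+. Lyz2 drives Cre in myeloid cells in general, not in TAMs alone. The sources used here do not say whether a sample was 1 mouse or a pool, so the p-values measure the spread between these samples, which may be technical.

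Disulfidptosis is a form of cell death in which cells that import much cystine and lack glucose run short of NADPH. Disulfides then accumulate, and proteins of the actin network are bonded to each other, so that the network contracts and pulls away from the plasma membrane. These are changes of the proteins. RNA-seq measures how much transcript of each target a cell holds, and says nothing about the bonds. In macrophages the same network drives crawling, adhesion and phagocytosis.

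The libraries held between 71019494 and 84470374 counts, and the 9 genes took 1.27% to 1.53% of them. Prkaa1, which encodes the catalytic subunit AMPKα1, ranged from 4535 to 5165 counts in WT and only from 3285 to 3467 in AMPK-KO libraries, a log2 difference of -0.60 (adjusted p = 0.000226). Lyz2, the locus that carries Cre, was as low in WT libraries (671 to 975 counts) as in AMPK-KO libraries (676 to 1088), whereas Early samples had 204851 to 249165 and Late samples 88212 to 93224. The low Lyz2 of the WT libraries puts their label in doubt, and these counts do not show whether they carry Cre, so the directions of AMPK-KO against WT rest on the labels and on Prkaa1. The genotype labels of AMPK-KO replicates 2 and 3 read Lyz3cre/cre and Lyz4cre/cre, against Lyz2cre/cre in their titles. Transcripts of 4 Y-linked genes (Uty, Kdm5d, Eif2s3y and Ddx3y) summed to 41.5 to 48.8 CPM in the Early samples and to at most 0.04996 CPM in the Late samples, so the sex of the cells and the stage cannot be told apart. The same sum was 128 to 153 CPM in WT and AMPK-KO samples. Xist, which is transcribed from the inactive X chromosome of female cells, had 164 to 286 CPM in Early and 300 to 496 CPM in Late samples. It had 0.83 to 2.19 CPM in WT and 0 to 0.10 CPM in AMPK-KO samples. Thus Late samples held the transcripts of female cells, WT and AMPK-KO samples mainly those of male cells, and Early samples both. The methods name female mice. Flna lies on the X chromosome. The 9 macrophage markers summed to 9381 to 11690 CPM in Early and 12388 to 12515 CPM in Late samples, with 1 higher by the test. They summed to 12090 to 13477 CPM in WT and 12279 to 12650 CPM in AMPK-KO samples, with 2 higher and 1 lower. In bulk samples, fewer cells of a type and less RNA per cell cannot be told apart.

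Levels are given as CPM (counts scaled to a common library total) on TMM-scaled library sizes, and groups were compared with edgeR's quasi-likelihood test, with p-values adjusted by the Benjamini-Hochberg method over all genes tested. A gene is said to have changed where its adjusted p was under 0.05. In AMPK-KO against WT TAMs, Myh10 rose 2.08-fold, Flna and Myh9 rose slightly, and Actb and Actn4 fell slightly. Thus 5 of the 9 genes changed, 3 upward and 2 downward, where 21.1% of the 17532 genes tested changed. The groups of samples did not overlap for 4 of the 9, beside 37.2% of all genes. In Late against Early TAMs, Myh10, Myh9, Tln1 and Flna rose and Vcl fell. Again 5 of the 9 changed, 4 upward and 1 downward, where 9.18% of 17630 genes changed, and the groups did not overlap for these 5, beside 31.2% of all genes. Most members are abundant, and among genes of at least 100 CPM in both groups the shares that changed were 42.8% for AMPK-KO against WT and 15.7% for Late against Early.

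**Figure D1:**
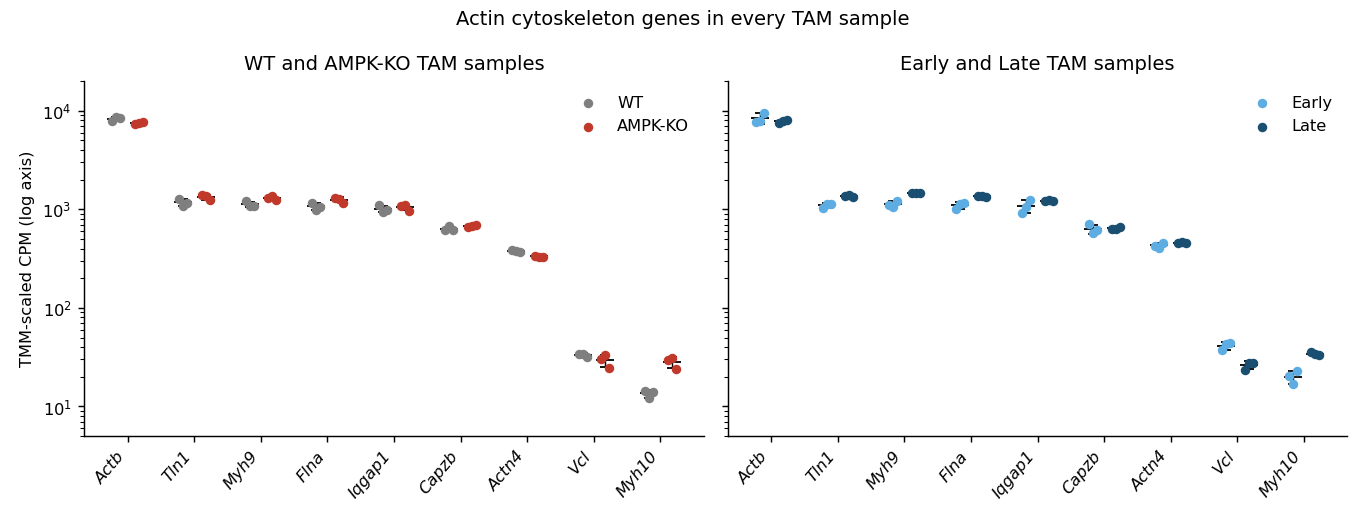
CPM of the 9 genes in each TAM sample, on a log axis. Points are samples and black bars are the mean ± SD of 3 samples. Actb lay near 8000 CPM and Vcl and Myh10 below 50 CPM in every sample, while the shifts between groups were small except for Myh10 and, in Late TAMs, Vcl.

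Per kilobase of exon, which makes levels of different genes roughly comparable, Actb was highest and Capzb second in every sample. The exons of all annotated transcripts of a gene were merged. This length can exceed that of the transcript present, so the order of genes with close levels is uncertain. In the WT samples the mean levels were 3102 CPM per kb for Actb, 193 for Capzb, 119.9 for Tln1, 114 for Flna, 86.8 for Myh9, 62.0 for Actn4, 61.0 for Iqgap1, 4.06 for Vcl and 1.29 for Myh10. Tln1 and Flna lay close to each other, as did Actn4 and Iqgap1, which changed order between WT samples. Vcl and Myh10 were the lowest in all 12 samples. Vcl lay above Myh10 in all samples but Late replicate 1, where Myh10 had 3.42 and Vcl 2.89 CPM per kb, and in the Late group mean they were close (3.28 and 3.21).

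Promoter windows of the 250 bases before the start were taken from RefSeq (GRCm38.p6), which matched 8 of the 9 members, all but Actb. The windows of Myh9 and Vcl overlapped no annotated exon and are shown, since these genes moved in opposite directions between stages. Capitals mark a CArG box, the element bound by serum response factor (SRF), a regulator of many cytoskeletal genes. It is palindromic and was searched on both strands. The Vcl window is chr14:20929148-20929397 on the plus strand and the Myh9 window is chr15:77842176-77842425 on the minus strand, each written 5′ to 3′ along its gene.
Vcl: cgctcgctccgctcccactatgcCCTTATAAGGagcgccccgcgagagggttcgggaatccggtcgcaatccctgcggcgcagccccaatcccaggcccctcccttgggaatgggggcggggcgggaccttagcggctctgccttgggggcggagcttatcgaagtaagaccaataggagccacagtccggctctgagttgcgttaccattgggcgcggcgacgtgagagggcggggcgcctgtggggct
Myh9: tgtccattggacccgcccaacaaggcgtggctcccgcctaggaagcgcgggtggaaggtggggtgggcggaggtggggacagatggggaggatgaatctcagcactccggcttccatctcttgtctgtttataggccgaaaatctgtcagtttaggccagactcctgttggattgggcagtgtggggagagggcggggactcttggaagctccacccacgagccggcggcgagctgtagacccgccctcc
The box of Vcl lay 227 to 218 bases before the start. No other matched member held one, beside 1.47% of 32851 mouse windows of this length. Actb was not searched, so whether it holds a box is not given here. A match is a description of the letters and not of binding.

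The nonmuscle myosin II heavy chains are the motors that pull on actin filaments. Myh9 (ENSMUSG00000022443.17, GRCm38 chromosome 15, 77760587 to 77842175, minus strand) encodes heavy chain IIA, the main form in blood cells. It stood at 1203, 1074 and 1089 CPM in the WT samples and at 1296, 1353 and 1237 CPM in the AMPK-KO samples. Every AMPK-KO sample was above every WT sample, by a narrow gap. The log2 fold change was 0.21 (SE 0.05, adjusted p = 0.0193), or 15.4%. Across stages it stood at 1106, 1065 and 1215 CPM in Early samples and at 1479, 1473 and 1464 CPM in Late samples. The Late samples lay close together and well above the Early ones, and the log2 difference was 0.38 (SE 0.07, adjusted p = 0.00831).

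Myh10 (ENSMUSG00000020900.15, chromosome 11, 68691559 to 68816632, plus strand) encodes heavy chain IIB, a slower motor that holds tension for longer. It had 14.4, 12.1 and 14.1 CPM in the WT samples and 29.3, 31.2 and 24.0 CPM in the AMPK-KO samples. The groups were far apart relative to their spread, although these are 874 to 2505 counts a sample. The log2 fold change was 1.06 (SE 0.12, adjusted p = 0.000112). In Early samples it had 20.2, 16.97 and 22.9 CPM and in Late samples 35.7, 34.1 and 33.2 CPM. Here too the groups did not overlap, and the log2 fold change was 0.78 (SE 0.12, adjusted p = 0.00327). Myh10 remained changed under all 13 alternatives of the processing in both comparisons.

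Myh9 nonetheless made up nearly all the heavy chain reads. Its share of Myh9 and Myh10 counts was 98.8% ± 0.08 (SD, n = 3) in WT and 97.9% ± 0.19 in AMPK-KO TAMs, and 98.3% ± 0.15 in Early and 97.7% ± 0.07 in Late TAMs. Each pair of groups was separate, with an exact two-sided permutation p = 0.1, the smallest that 3 samples against 3 can give. Fibroblasts and other stromal cells express Myh10, and markers of other cells moved beside it. The 7 fibroblast markers summed to 575 to 621 CPM in WT and 747 to 829 CPM in AMPK-KO samples (6 of 7 higher). In Early samples they summed to 811 to 884 CPM and in Late samples to 397 to 561 CPM (3 of 7 lower), opposite to Myh10. None of the 7 was at 0. The 4 T cell markers summed to 44.0 to 54.6 CPM in WT and 100.5 to 101.3 CPM in AMPK-KO samples, and to 77.9 to 85.7 CPM in Early and 97.2 to 113 CPM in Late samples. The part of these cells in the Myh10 result was not tested.

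Actb (ENSMUSG00000029580.14, chromosome 5, 142903115 to 142906754, minus strand) encodes β-actin, the filament itself and a customary reference gene. It stood at 7837, 8646 and 8449 CPM in WT samples and at 7255, 7431 and 7671 CPM in AMPK-KO samples. The groups did not overlap, and the log2 fold change was -0.16 (SE 0.04, adjusted p = 0.0211). In Early samples it stood at 7747, 7887 and 9544 CPM and in Late samples at 7491, 7924 and 8079.5 CPM. These groups overlapped, Early replicate 3 alone lay above the rest, and the difference of -0.10 (95% interval -0.29 to 0.09, adjusted p = 0.526) did not pass the test. Without that sample it was 0.0018.

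The share of Actb in the counts of both cytoplasmic actins, Actb and Actg1, was 74.0% ± 1.01 (SD, n = 3) in WT and 70.3% ± 0.63 in AMPK-KO TAMs. It was 73.8% ± 2.02 in Early and 71.03% ± 0.66 in Late TAMs. Both differences gave an exact permutation p = 0.1, the smallest possible. The difference between stages was -2.75 percentage points, and it was -1.62 without Early replicate 3. The coding sequences of the pair are nearly identical and the treatment of shared reads is not given in the sources used here, so this split is uncertain.

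Filamin A and α-actinin 4 crosslink actin filaments. Flna (ENSMUSG00000031328.16, X chromosome) encodes filamin A, which ties filaments into orthogonal gels and to integrins. It had 1169.7, 992 and 1062 CPM in WT samples and 1295, 1285 and 1166 CPM in AMPK-KO samples. WT replicate 1 slightly exceeded AMPK-KO replicate 3, so the groups overlapped. The log2 fold change was 0.22 (SE 0.06, adjusted p = 0.0354). In Early samples it had 1001, 1125 and 1168 CPM and in Late samples 1374, 1375 and 1329 CPM. The stages were separate, and the log2 difference was 0.31 (SE 0.07, adjusted p = 0.0296).

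Actn4 (ENSMUSG00000054808.15, chromosome 7, 28893248 to 28962340, minus strand) encodes α-actinin 4, which bundles filaments. It stood at 388, 380.0 and 372 CPM in WT samples and at 337, 331 and 329 CPM in AMPK-KO samples. The replicates were tight and the groups separate, and the log2 difference was -0.19 (SE 0.04, adjusted p = 0.00816). It remained lower under all 13 alternatives, with adjusted p up to 0.0451. Melanoma markers were also lower in AMPK-KO samples (6 of 6). The part of melanoma cells in the falls of Actn4 and Actb was not tested. In Early samples it stood at 427, 407 and 454 CPM and in Late samples at 452, 470.4 and 453 CPM. Those groups overlapped, and the difference of 0.09 (95% interval -0.06 to 0.25, adjusted p = 0.446) did not pass the test. Actn4 was the only member whose difference had opposite signs in the 2 comparisons.

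Talin and vinculin link actin to integrins. Tln1 (ENSMUSG00000028465.16, chromosome 4, 43531519 to 43562691, minus strand) encodes talin 1, which binds integrin tails and activates them. It had 1265, 1090.35 and 1169.7 CPM in WT samples and 1389.6, 1358 and 1232 CPM in AMPK-KO samples. WT replicate 1 lay above AMPK-KO replicate 3, and the difference of 0.18 (SE 0.06, adjusted p = 0.0716) missed the threshold. In Early samples it had 1022, 1137 and 1132 CPM and in Late samples 1371, 1387 and 1348 CPM. The stages did not overlap, and the log2 fold change was 0.32 (SE 0.07, adjusted p = 0.0180). Platelets hold much talin 1, filamin A and myosin IIA. Their 4 markers summed to 85.8 to 101.7 CPM in WT and 24.3 to 27.0 CPM in AMPK-KO samples, and to 86.6 to 90.9 CPM in Early and 22.2 to 24.5 CPM in Late samples. Nearly all of this was Ppbp. Gp9, Gp1ba and Itga2b were below 1 CPM in each group mean, and Itga2b had 0.79 CPM in WT, 0.92 in AMPK-KO, 0.13 in Early and 0.42 in Late TAMs. The part of platelets in these results was not tested.

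Vcl (ENSMUSG00000021823.10, chromosome 14, 20929398 to 21033676, plus strand) encodes vinculin, which reinforces the link between talin and actin under load. It had 34.3, 33.7 and 31.7 CPM in WT samples and 30.5, 33.0 and 24.8 CPM in AMPK-KO samples. These groups overlapped and the difference of -0.18 (95% interval -0.40 to 0.05, adjusted p = 0.264) did not pass the test. In Early samples it had 37.1, 42.6 and 44.4 CPM and in Late samples 23.7, 27.9 and 27.4 CPM. The stages were well apart, and the log2 difference was -0.65 (SE 0.11, adjusted p = 0.00472), and Vcl remained lower under all 13 alternatives. Vinculin is abundant in smooth muscle and fibroblasts. Smooth muscle or pericyte markers summed to 29.2 to 31.6 CPM in Early and 13.0 to 23.7 CPM in Late samples, with none of the 5 markers at 0. By the test 0 of these 5 changed, and Myh11 had a positive log2 difference (0.19, adjusted p = 0.833). Melanoma markers summed to 1546 to 1667 CPM in Early and 701 to 1133 CPM in Late samples (4 of 6 lower). Fibroblast markers, as given above, also had lower sums in Late samples (3 of 7 lower). The part of these cells in the Vcl result was not tested.

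Iqgap1 and Capzb encode a scaffold and an end-capping subunit. Iqgap1 (ENSMUSG00000030536.10, chromosome 7, 80711583 to 80825974, minus strand) binds Rac1, Cdc42 and actin. It stood at 1099, 949 and 977 CPM in WT, 1074, 1095 and 966 CPM in AMPK-KO, 923, 1063 and 1256 CPM in Early and 1205, 1231 and 1211 CPM in Late samples. Groups overlapped in both comparisons. The differences were 0.05 (95% interval -0.09 to 0.19, adjusted p = 0.641) for AMPK-KO and 0.17 (95% interval -0.06 to 0.40, adjusted p = 0.346) for Late TAMs. The Early samples were widely spread, and without Early replicate 3 the difference was 0.29 with an adjusted p of 0.0272.

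Capzb (ENSMUSG00000028745.18, chromosome 4, 139192899 to 139291818, plus strand) encodes the β subunit of the protein that caps the growing end of filaments. It stood at 619.7, 671 and 622 CPM in WT, 662, 675 and 686 CPM in AMPK-KO, 701, 571 and 624 CPM in Early and 633, 629.8 and 664 CPM in Late samples. No grouping separated them. The differences were 0.08 (95% interval -0.02 to 0.18, adjusted p = 0.255) and 0.02 (95% interval -0.16 to 0.21, adjusted p = 0.900).

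**Figure D2:**
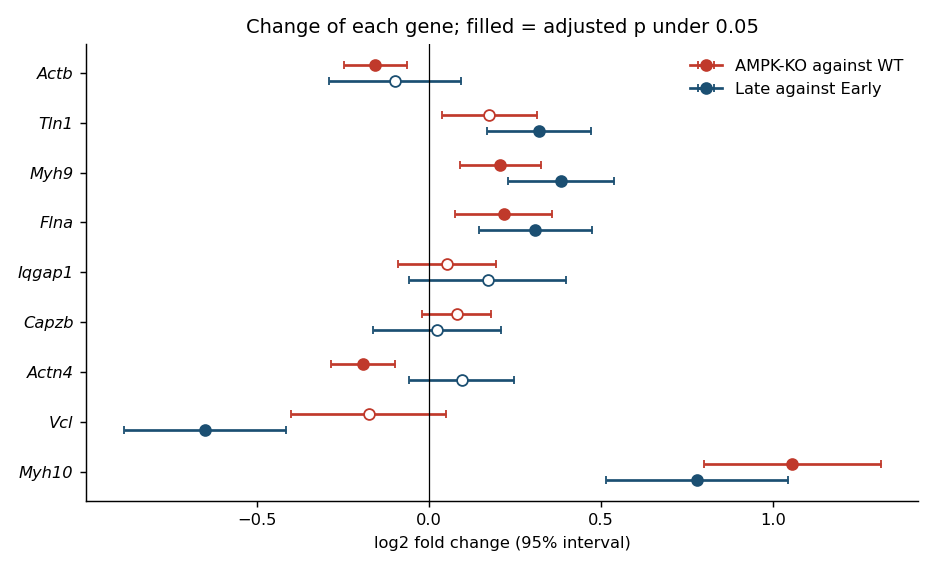
Log2 fold change of each gene with its 95% interval, which is not adjusted for the number of genes, in AMPK-KO against WT (red) and Late against Early TAMs (blue). Filled points had an adjusted p under 0.05. Myh10 lay far to the right in both, Vcl far to the left in Late TAMs, and the other 7 genes between -0.19 and 0.38.

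The 2 comparisons share no sample. Of the 9 genes, 8 had the same sign in both, beside 53.5% of the 16812 genes tested in both tables. Of these 8, Iqgap1, Capzb, Vcl and Actb had a 95% interval that held 0 in at least 1 comparison. In Late TAMs the sign of Capzb changed under 3 of 13 alternatives and that of Actb under 1. Myh10, Myh9 and Flna rose in both, where 4.89% of genes changed in both and 2.71% did so with the same sign. Calls of the smaller changes were lost when single samples were left out, while their size stayed similar. In AMPK-KO against WT, only Myh10 and Actn4 were still changed when WT replicate 2, WT replicate 3, AMPK-KO replicate 1 or AMPK-KO replicate 2 was left out, with 2 of 9 called each time. Flna then had log2 differences of 0.16 to 0.20 (adjusted p from 0.0994 to 0.144), Myh9 of 0.17 to 0.21 (0.0593 to 0.114) and Actb of -0.16 to -0.13 (0.0715 to 0.0896). In Late against Early, 2 of 9 were called without Early replicate 2, Late replicate 2 or Late replicate 3, namely Myh10 and Vcl, and 3 without Late replicate 1, with Myh9 added. Where these calls were lost, Myh9 differed by 0.34 to 0.39 (adjusted p from 0.0515 to 0.0583), Tln1 by 0.31 to 0.34 (0.0570 to 0.104) and Flna by 0.30 to 0.32 (0.0955 to 0.137). Without WT replicate 1 or AMPK-KO replicate 3, 6 were called in the first comparison, with Tln1 added, and without Early replicate 3, 6 were called in the second, with Iqgap1 added.

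Changes in AMPK-KO against WT also moved with the length of the gene. Among genes of at least 100 CPM in both groups, the median log2 fold change was -0.14 for the 263 with up to 2000 exonic bases and 0.08 for the 359 with more than 8000. Flna (9400 exonic bases), Myh9 (12928) and Tln1 (9801) belong to the longest genes, and Actb (2679) to the shorter ones. In Late against Early the medians were -0.03 and 0.02. Single samples moved too, with a median deviation of the longest genes of -0.11 in WT replicate 2, 0.09 in AMPK-KO replicate 1, 0.07 in AMPK-KO replicate 2, -0.11 in Early replicate 1 and 0.09 in Early replicate 3. With length corrected in each sample, an alternative added after the data were seen, the log2 fold changes in AMPK-KO were 0.20 for Flna, 0.19 for Myh9, 0.15 for Tln1 and -0.18 for Actb, and 6 of 9 genes were called, with adjusted p of 0.00378, 0.00336, 0.0110 and 0.00129 for these 4. In Late against Early 5 of 9 were called.

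**Figure D3:**
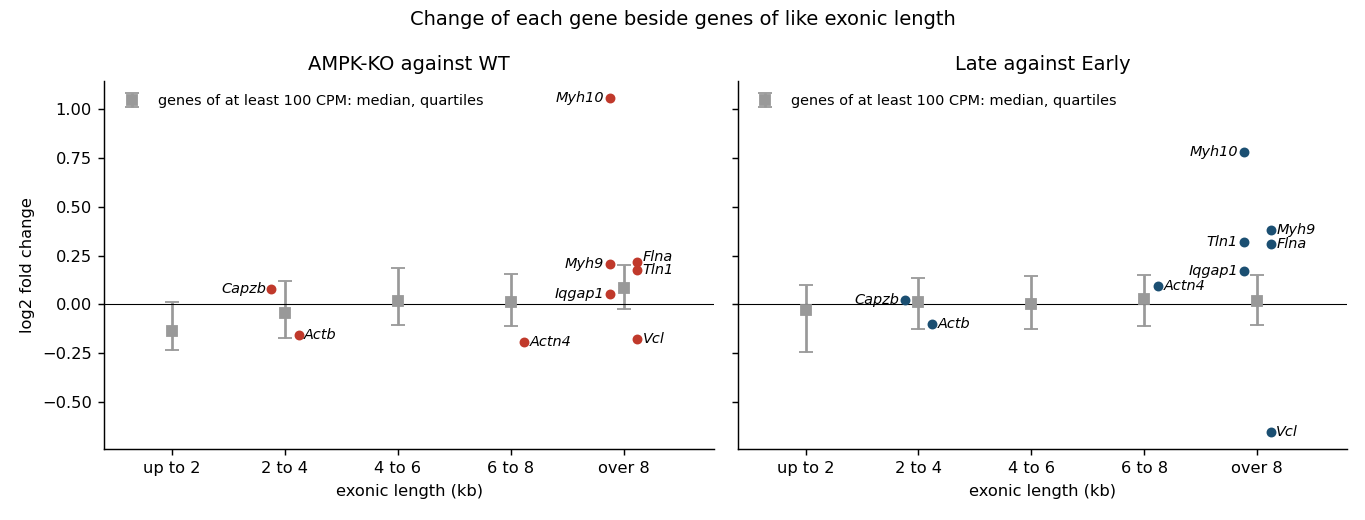
Log2 fold change of the 9 genes (coloured points, placed in the class of their exonic length) beside genes of at least 100 CPM in both groups of the same length class (grey squares, median with quartiles). In AMPK-KO against WT the grey medians climb from -0.14 to 0.08 with length, and Flna and Myh9 lie just above the upper quartile of the longest class. In Late against Early the medians are nearly flat, and Flna, Myh9 and Tln1 lie above the quartiles.

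Most of the tested paralogs and partner subunits did not change, at shares near those of all genes. Of 17 listed, 13 were tested, and Myh14, Actc1, Actn3 and Capza3 did not pass the filter. In AMPK-KO against WT, 2 rose and 1 fell, which is 23.1% of those tested beside 21.1% of all genes tested. Actn1, the paralog of Actn4 found in adhesions, fell from 66.2 ± 4.20 to 40.1 ± 1.89 CPM (SD, n = 3; log2 fold change -0.72, adjusted p = 3.62e-05), further than Actn4 itself. Capza2, a partner of Capzb, rose from 428 ± 13.4 to 519.6 ± 25.9 CPM (0.28, adjusted p = 0.00261). Actg1 rose from 2913 ± 27.5 to 3145 ± 75.4 CPM (0.11, adjusted p = 0.0433), a call that was lost under 11 of 13 alternatives. In Late against Early, 1 of 13 changed (7.69%), beside 9.18% of all genes tested. It was Iqgap3, a scaffold of dividing cells, which rose from 37.2 ± 2.07 to 62.9 ± 3.72 CPM (0.76, adjusted p = 0.000578). Actn1 did not pass there, with 80.4 CPM in Early and 92.8 CPM in Late TAMs (adjusted p = 0.187). Among those that did not pass in either comparison, Tln2 had 9.97 CPM in WT and 6.73 CPM in AMPK-KO TAMs, Iqgap2 127 and 113 CPM, Capza1 296 and 311 CPM, and Acta2 11.1 and 8.63 CPM. Flnc, Actn2, Acta1 and Actg2 stayed below 1.5 CPM in every group mean.

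**Figure D4:**
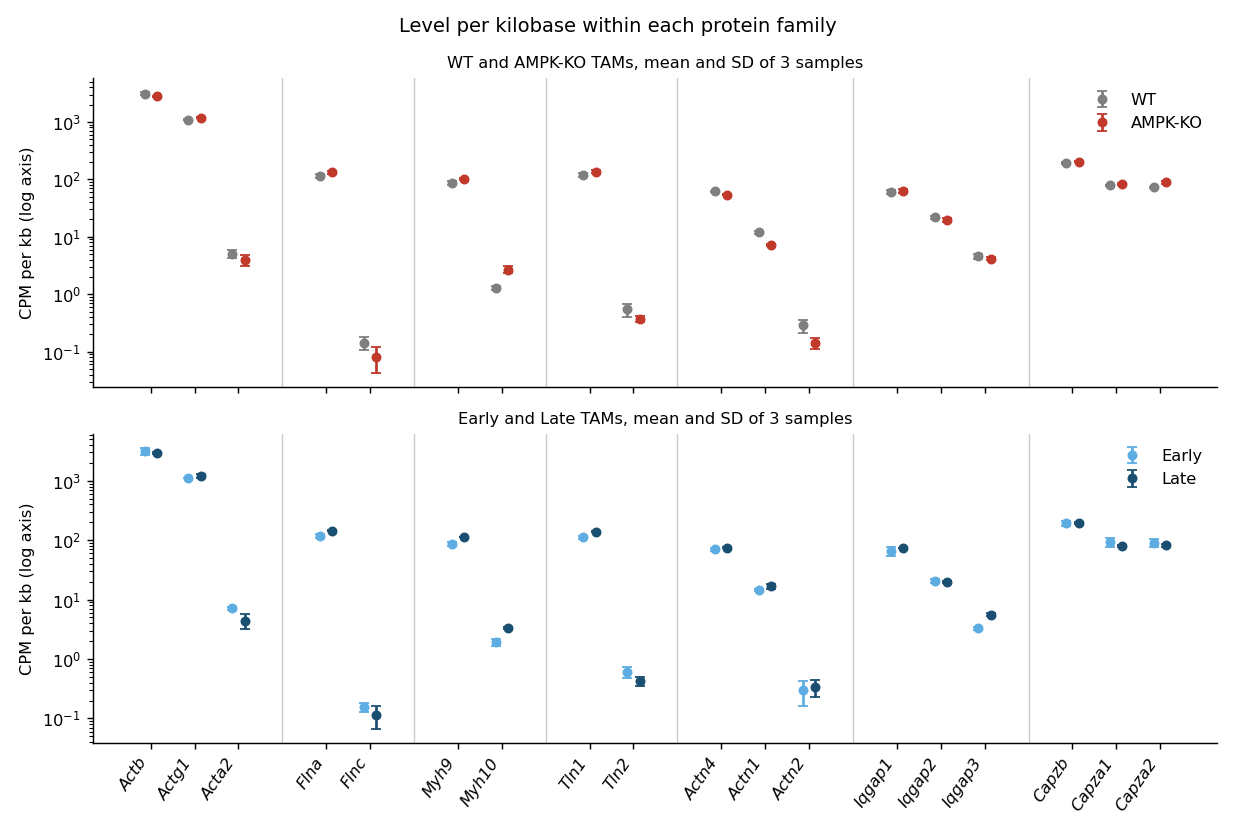
Level per kilobase of exon (log axis, mean ± SD of 3 samples) of the members and of paralogs or partner subunits, with the protein families set apart by grey lines. In each family the member, or Actb and Myh9 among actins and myosins, lay above the other genes drawn in all 4 groups. Actn1 lay lower in AMPK-KO than in WT TAMs.

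Of 6 other genes whose proteins belong to the disulfide-bonded actin network, 1 rose and 1 fell in each comparison. This share of 33.3% stands beside 21.1% of all genes tested for AMPK-KO and 9.18% for Late TAMs. Pdlim1, an adaptor that binds α-actinin, fell from 30.5 to 22.4 CPM in AMPK-KO (log2 fold change -0.45, adjusted p = 0.00195) and from 30.2 to 16.9 CPM in Late TAMs (-0.84, adjusted p = 0.000981). Cd2ap, an adaptor between membrane receptors and actin, rose in AMPK-KO TAMs (69.0 to 85.9 CPM, adjusted p = 0.00625). Inf2, a formin, rose in Late TAMs (45.3 to 57.2 CPM, adjusted p = 0.0270), a call that was lost under 6 of 13 alternatives. Myl6, which encodes a myosin light chain, and Dstn, which encodes the filament-severing destrin, did not pass in either comparison. Dstn had 157 and 136 CPM in WT and AMPK-KO TAMs (adjusted p = 0.0505).

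Myosin light chains and their regulators gave 2 higher and 1 lower gene of 10 in AMPK-KO TAMs and 0 of 10 in Late TAMs. These shares of 30% and 0% stand beside 21.1% and 9.18% of all genes tested. With edgeR, Rock1, a kinase that activates myosin, rose by 0.30 (adjusted p = 0.0110) and Myl12b by 0.22 (adjusted p = 0.0174), whereas Mylk, the light chain kinase, fell by 0.88 on the log2 scale (adjusted p = 0.00112). SRF and its cytoskeletal targets gave 2 higher and 2 lower of 13 in AMPK-KO TAMs (30.8%), and 0 of 13 in Late TAMs. Those in AMPK-KO TAMs were Cnn2 (0.40) and Mrtfa (0.32) against Tpm1 (-0.39) and Tagln2 (-0.24). Leaving out single samples ended the call of Tagln2 in 4 cases, of Rock1 and Myl12b in 3 each and of Mrtfa in 1. The counts at 0 in Late TAMs stand beside 3 and 5 genes, respectively, with an unadjusted p under 0.05, and 1 and 3 genes called by DESeq2.

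Among 23 integrin adhesion genes, the partners of talin and vinculin, 13 rose and 6 fell with AMPK-KO. That is 82.6%, beside 21.1% of all genes tested and 42.8% of those of at least 100 CPM. The integrin subunits Itgax (119 to 254 CPM, log2 fold change 1.10) and Itgal (96.5 to 197 CPM, 1.03) rose, while Ptk2, which encodes focal adhesion kinase, and the tensin gene Tns1 fell (-0.67 and -0.52). Itgam, also in this list, encodes CD11b of the sort gate. Markers of dendritic cells, which express Itgax, summed to 28.7 to 34.0 CPM in WT and 48.1 to 55.4 CPM in AMPK-KO samples (4 of 4 higher). Itgal is also expressed by T and NK cells, whose markers were higher too, T cells as given above (4 of 4) and NK cells with 7.25 to 9.43 CPM in WT and 15.9 to 19.9 CPM in AMPK-KO samples (3 of 3). The part of these cells was not tested. In Late TAMs 2 rose and 4 fell, 26.1% beside 9.18% of all genes tested and 15.7% of those of at least 100 CPM. Itgax (0.56) and Ptk2b (0.38) were higher there and Ptk2 (-0.84) and Tns1 (-0.65) lower. Genes of actin assembly and turnover gave 7 higher and 5 lower of 29 in AMPK-KO and 4 higher and 1 lower in Late TAMs. These shares of 41.4% and 17.2% lie near the 42.8% and 15.7% of genes of at least 100 CPM. Over all genes tested the shares were 21.1% and 9.18%. Fscn1, the filament bundler fascin, fell in AMPK-KO (-0.50, adjusted p = 0.000195) and rose in Late TAMs (0.75, adjusted p = 0.00444). Twf2 (0.44) and Actr3 (0.26) rose and Twf1 (-0.43) fell in AMPK-KO, and Fmnl1 rose (0.43) and Tmsb10 fell (-0.48) in Late TAMs. Of 11 genes of the WAVE complex and Rac, which trigger branched actin, 3 rose and 1 fell in AMPK-KO TAMs (36.4%). In Late TAMs 1 rose and 1 fell (18.2%). Nckap1 fell in both (-0.71 and -0.64), while Abi3 (0.44) and Rac2 (0.24) rose in AMPK-KO and Cyfip2 (0.38) rose in Late TAMs. In Late TAMs the calls of Tmsb10, Nckap1 and Cyfip2 were each lost under 5 of 13 alternatives, and those of Ptk2b and Fmnl1 under 1.

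Genes of reducing capacity, which counter disulfide stress, were among those that fell in both comparisons, while the cystine importer rose in AMPK-KO TAMs and fell in Late TAMs. Of 15 genes of cystine uptake and NADPH supply, 1 rose and 10 fell in AMPK-KO TAMs. That is 73.3%, beside 21.1% of all genes tested and 42.8% of those of at least 100 CPM. The list median there was -0.23 beside -0.0037 over all genes tested. In Late TAMs 6 fell (40%, beside 9.18% and 15.7%), while the other 9 did not pass the test. The median there was -0.20 beside 0.0027. Slc7a11, the cystine importer, had 20.2, 16.7 and 16.5 CPM in WT and 27.0, 26.4 and 23.1 CPM in AMPK-KO samples. It was higher in every AMPK-KO sample, by 0.52 on the log2 scale (adjusted p = 0.00555). It had 18.4, 24.3 and 25.04 CPM in Early and 9.77, 7.89 and 8.03 CPM in Late samples, a fall in every Late sample (-1.40, adjusted p = 0.000463). Gclm, a subunit of the enzyme that starts glutathione synthesis, fell in both, from 109 ± 6.88 to 47.2 ± 3.77 CPM in AMPK-KO (-1.20, adjusted p = 2.09e-06) and from 127 ± 1.66 to 83.1 ± 5.52 CPM in Late TAMs (-0.61, adjusted p = 0.000943). Txnrd1, thioredoxin reductase, fell in AMPK-KO TAMs (231 to 155 CPM, -0.57). In all, 5 of the 15 fell in both comparisons, and 1, Slc7a11, changed in opposite directions. Melanoma markers summed to 919 to 926 CPM in WT and 615 to 645 CPM in AMPK-KO samples (6 of 6 lower). The part of melanoma cells in these falls, and in those of other genes lower in AMPK-KO or Late TAMs, was not tested.

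**Figure D5:**
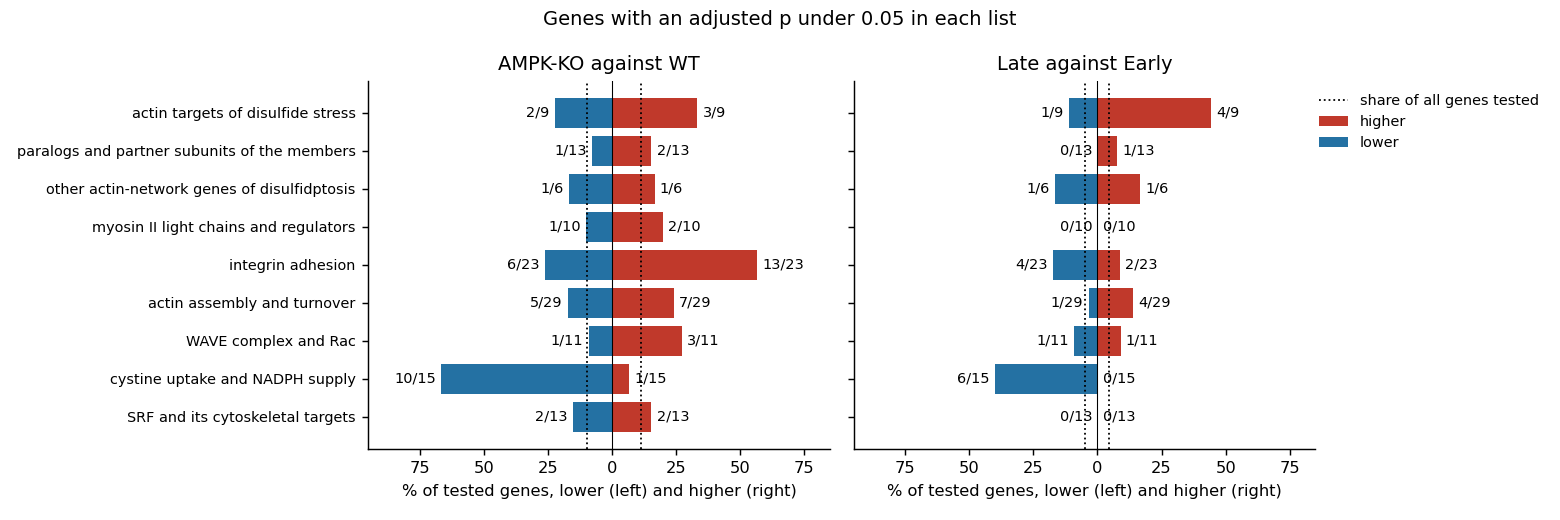
Share of the tested genes of each list that had an adjusted p under 0.05 in AMPK-KO against WT and in Late against Early TAMs, lower to the left and higher to the right, with counts beside the bars. Dotted lines are the shares over all genes tested (11.3% higher and 9.78% lower on the left, 4.31% and 4.88% on the right). For cystine uptake and NADPH supply most bars run to the left in both panels (10 and 6 of 15), and for integrin adhesion 13 of 23 genes lie to the right in AMPK-KO TAMs.

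Flna and Tln1 followed nearly the same course over the 12 samples. Among 2009 genes of at least 100 CPM, the gene whose log2 CPM, centred within each table, lay nearest to Flna was Tln1, with a mean absolute difference of 0.0201, ahead of Abr (0.0353) and Htt (0.0406). The genes nearest to Myh9 were Swap70 (0.0403), Tgfbr2 (0.0456) and Flna (0.0460), and Tln1 ranked 9. Actb ranked 1383 from Flna and 1405 from Myh9. All genes of a sample share its library and depth. Flna and Tln1 are also of similar exonic length (9400 and 9801 bases), and the median of the longest genes shifted in single samples, as given above. The part of length in this likeness was not tested, and the likeness is a description with no test.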

How the data were processed

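Total RNA of sorted TAMs was isolated and made into libraries with kits, and sequenced. HISAT2 mapping and featureCounts gave the raw read counts per gene that the authors deposited, without normalization, in 1 table for WT and AMPK-KO and 1 for Early and Late samples. Versions and the handling of strand and shared reads are not given in the sources used here. The methods write GRCh38 for the mouse genome, the submitters' processing notes mm10 and GRCm38, and 54349 of 55401 identifiers match GENCODE M21 with their version, so positions and exonic lengths are from M21. For Flna the version differs and no position is printed.

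Each table was fitted on its own with edgeR 4.0.16 in R 4.3.3 (filterByExpr, TMM, glmQLFit, glmQLFTest), without covariates. Standard errors are the log2 fold change divided by the square root of F. No replicates agreed within sampling noise. Fits were tested on simulated data. Shares of counts were compared with two-sided exact permutation tests. Alternatives were DESeq2 1.42.0, scaling by upper quartiles or RLE, a minimum of 10 counts per library or no minimum beyond 1 count, the replicate number as a block, a per-sample loess on exonic length, and each sample left out. The named genes are all members, all tested paralogs, partners and network genes, up to 2 genes per direction with the smallest adjusted p in each other list, the 3 nearest genes of Flna and Myh9, and label checks. Itgam and marker genes are named as context, and 1 gene that the rule covers is not reported here. The members and lists were chosen with earlier results of these data known.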

Additional observations from a re-analysis of the deposited data

How the results depend on the processing

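Of 234 values, the log2 fold changes of the 9 genes in 2 comparisons under 13 alternatives each, 196 kept their direction and their side of the threshold, 28 lost the call, 6 gained one and 4 changed sign. The sign changes were those of genes that did not pass the test. Capzb in Late TAMs was -0.010 with the length correction and ranged from -0.047 (without Early replicate 2) to 0.11 (without Early replicate 1) when single samples were left out, with -0.0016 without Late replicate 3. Actb ranged from -0.15 (without Early replicate 1) to 0.0018 (without Early replicate 3). The number of members called was 2 (AMPK-KO) and 4 (Late) with no filter beyond 1 count, where more genes were tested and Flna, Myh9 and Actb (AMPK-KO) and Flna (Late) lost the call, and leaving out single samples gave 2 to 6 in both comparisons. Over all genes, leaving out single samples gave 2414 to 4039 calls in AMPK-KO and 653 to 2835 in Late TAMs, where 3693 and 1619 were called with all samples. For Late TAMs DESeq2 called 2467 and the fit with no filter 936. The causes of these shifts were not tested.

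Samples with the same replicate number did not deviate together (correlations of -0.004 to 0.042). This gave no sign of pairing by number, though with 3 samples a group it cannot exclude one. With the replicate number as a block, 6 members were called in AMPK-KO TAMs, with Tln1 added, and 4 in Late TAMs, where Flna had an adjusted p of 0.0533. All genes called were 3862 and 1417. The depth gave over 800 counts a sample for every member, so that the spread between 3 samples, not counting error, limits these comparisons.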
